A study of Mus musculus with 4 samples.

Results

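The 40 genes described here encode soluble lysosomal hydrolases, their cofactors, lysosomal membrane proteins and 2 regulators. They were taken by symbol from the deposited expression table, where all 40 of the 40 names had a row among 29011 mouse genes. Total RNA came from whole small intestine taken 8 days after birth and was sequenced. The 2 control libraries carry the genotype label VilCre-; Lats1/2-/-, while the series design describes controls as Lats1/2f/f animals that lack Cre. The 2 Lats1/2 KO libraries are labelled VilCre+; Lats1/2-/-, and Villin-driven Cre acts in the intestinal epithelium and not in muscle, stroma, nerve or blood cells. Lats1 and Lats2 are the Hippo pathway kinases that restrain the co-activators YAP and TAZ, and the comparison asks how tissue RNA differs once they are deleted in the epithelium.

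Lysosomes are acidic organelles in which proteins, glycans and lipids are broken down by enzymes that mostly reach them through a mannose 6-phosphate tag. In suckling mammals, enterocytes of the distal small intestine take up milk proteins by receptor-mediated endocytosis and digest them in large lysosomal vacuoles. The transcription factor TFEB raises many lysosomal genes by binding a promoter element known as CLEAR, and mTORC1 on the lysosome surface holds TFEB in the cytoplasm when nutrients are plentiful.

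The CLEAR element was looked for in promoter windows from 250 bases before to 50 bases after each annotated start site, taken from RefSeq on GRCm38.p6. Of the 40 genes, 36 had 41 such windows. Its full palindromic consensus was in 0 of these 41 windows and in 0.326% of all 32851 promoter windows. The core of the element, TCACGTG on either strand, was in 11 of the 41 member windows (26.8%) and in 3.77% of all windows. Every core match also holds the E-box CACGTG, which was in 29.3% of member windows and 7.15% of all. The windows below are shown because they let the lysosomal promoter element be set beside the direction in which each gene moved. They read 5′ to 3′ along the gene, and capitals mark the core on either strand. Ctsd holds a further core near the far end of its window, which is not shown. The Ctsa and Lgmn stretches come from the second listed window of each gene, at another annotated start site. Their first listed windows held no core.
Ctsd (chr7:142387899-142387946, minus strand): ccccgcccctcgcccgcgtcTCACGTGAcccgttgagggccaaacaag
Gaa (chr11:119267802-119267848, plus strand): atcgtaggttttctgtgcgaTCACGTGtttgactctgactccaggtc
Lgmn (chr12:102439116-102439162, minus strand): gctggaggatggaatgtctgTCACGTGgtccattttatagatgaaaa
Ctsa (chr2:164833740-164833792, plus strand): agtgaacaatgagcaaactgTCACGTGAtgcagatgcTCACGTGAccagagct
Gla (chrX:134601173-134601253, minus strand): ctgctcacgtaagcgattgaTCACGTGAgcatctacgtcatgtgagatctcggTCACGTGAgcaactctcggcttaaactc
Lamp1 (chr8:13159079-13159171, plus strand): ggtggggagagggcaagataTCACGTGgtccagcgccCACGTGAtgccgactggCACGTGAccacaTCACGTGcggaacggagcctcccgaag
Mcoln1 (chr8:3500427-3500500, plus strand): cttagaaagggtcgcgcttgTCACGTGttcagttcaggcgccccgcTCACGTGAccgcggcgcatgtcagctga

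Ctsd, Gaa and Lgmn were higher in the Lats1/2 KO samples and Ctsa and Gla lower, while Lamp1, which carries 4 cores in this stretch, and Mcoln1, which carries 2, did not pass the test. The other 4 genes with a core were Glb1, Naglu, Sgsh and Arsa, none of which passed. By direction, the core was in the windows of 3 of 6 higher, 2 of 8 lower and 6 of 22 uncalled genes that had a window. The core was thus present among genes of either direction, and a match describes letters in the window and not a bound site.

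TEAD factors, the DNA-binding partners of YAP and TAZ, recognise the letters CATTCC. This motif, on either strand, was in 7 of the 41 member windows (17.1%) and in 14.7% of all windows. It was in 4 of 6 higher, 1 of 8 lower and 2 of 22 uncalled genes that had a window, counting any window of a gene. All 7 genes with the motif are shown, with the motif in capitals, so that it can be read in genes of each direction. A match again describes letters and not a bound site, and the share in member windows was near that in all windows.
Grn (chr11:102430325-102430401, plus strand): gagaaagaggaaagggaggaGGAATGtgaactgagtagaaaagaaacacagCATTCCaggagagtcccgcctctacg
Gaa (chr11:119267883-119267928, plus strand): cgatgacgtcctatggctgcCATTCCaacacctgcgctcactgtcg
Npc2 (chr12:84773331-84773362, minus strand): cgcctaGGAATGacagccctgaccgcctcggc
Lgmn (chr12:102439127-102439172, minus strand): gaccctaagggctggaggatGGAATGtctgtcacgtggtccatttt
Galc (chr12:98259645-98259690, minus strand): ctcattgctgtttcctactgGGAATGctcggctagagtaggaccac
Man2b1 (chr8:85083133-85083178, plus strand): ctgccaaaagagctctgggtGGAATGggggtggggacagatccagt
Glb1 (chr9:114400954-114400999, plus strand): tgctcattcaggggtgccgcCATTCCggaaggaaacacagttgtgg

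Grn, Gaa, Npc2 and Lgmn were higher in the knockouts and Galc lower, and Man2b1 and Glb1 did not pass. The first listed window of Lgmn held no such motif, and the match shown lies at another annotated start site.

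Sequencing depth, recovered from the table, spanned 25135964 to 27811313 reads for controls and 30517967 to 32361940 for knockouts, and every member had at least 132 reads in each library. Normalized counts of Lats1 were 2438 ± 173 in the controls and 706 ± 64.2 in the knockouts (SD, n = 2 each), a fall (log2 change -1.79, adjusted p = 0.00055) in the direction its label gives. Lats2 was 280 ± 9.63 in the controls and 275 ± 29.2 in the knockouts and did not pass, so its gene total does not show the labelled deletion. Which exons were deleted is not stated in the labels, and tissue outside the epithelium keeps both genes. Of 17 epithelium markers, 4 rose and 4 fell (47.1%, against 27.5% of all tested genes), and none was at 0 in any library. Of the 3 most abundant, Apoa4 and Apoa1 did not pass and Fabp2 fell. Krt18, Krt8, Krt20 and Krt19, named after their values were seen, rose, with log2 changes of 1.52, 1.34, 1.23 and 0.95. Fabp1, Lct and Cdx1, named likewise, fell, with -0.68, -0.59 and -0.87. The summed level of the 17 markers was 1854920 and 1891150 normalized counts in the controls and 1680000 and 1865010 in the knockouts. The most abundant genes make up most of this sum. Of 21 macrophage markers, 12 fell and 1 rose, or 61.9%. Their sum was 25293 to 26002 normalized counts in the controls and 15439 to 18423 in the knockouts. None of these 21 tested rows was at 0 in any library, and a second Itgam row, with 1 read in all, was not tested. Of the other cell types, 0 of 7 smooth muscle, 3 of 6 fibroblast, 1 of 5 endothelium, 1 of 6 neuron and glia and 0 of 4 red blood cell markers fell, and none rose. Over all tested genes 12.3% fell and 15.2% rose. At an unadjusted p under 0.05 by limma, 1 smooth muscle marker and 0 red blood cell markers were lower, where 19.5% of all tested genes were lower, 21.7% higher and 41.3% either. Macrophages are rich in lysosomes, and the part of this difference in the results on lysosomal genes was not tested. In whole tissue, fewer cells of a type and less RNA per cell cannot be told apart.

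Among these 40 lysosomal genes, calls in the 2 directions were equal in number, and the changes were under 2-fold. Of the 40, all of which passed the filter on low values, 8 rose and 8 fell in the Lats1/2 KO samples at an adjusted p under 0.05 by limma, and 24 did not pass. Over all 16415 tested genes, 15.2% rose, 12.3% fell and 27.5% were called in either direction. None of the 16 called members changed by as much as 2-fold. The median log2 change was 0.08 over the members and 0.00 over all tested genes, and the median size of the log2 change, without its sign, was 0.31 and 0.28. The groups did not overlap in 18 higher and 15 lower members, against 34.9% and 33.4% of all tested genes, or 68.3% in either direction.

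**Figure D1:**
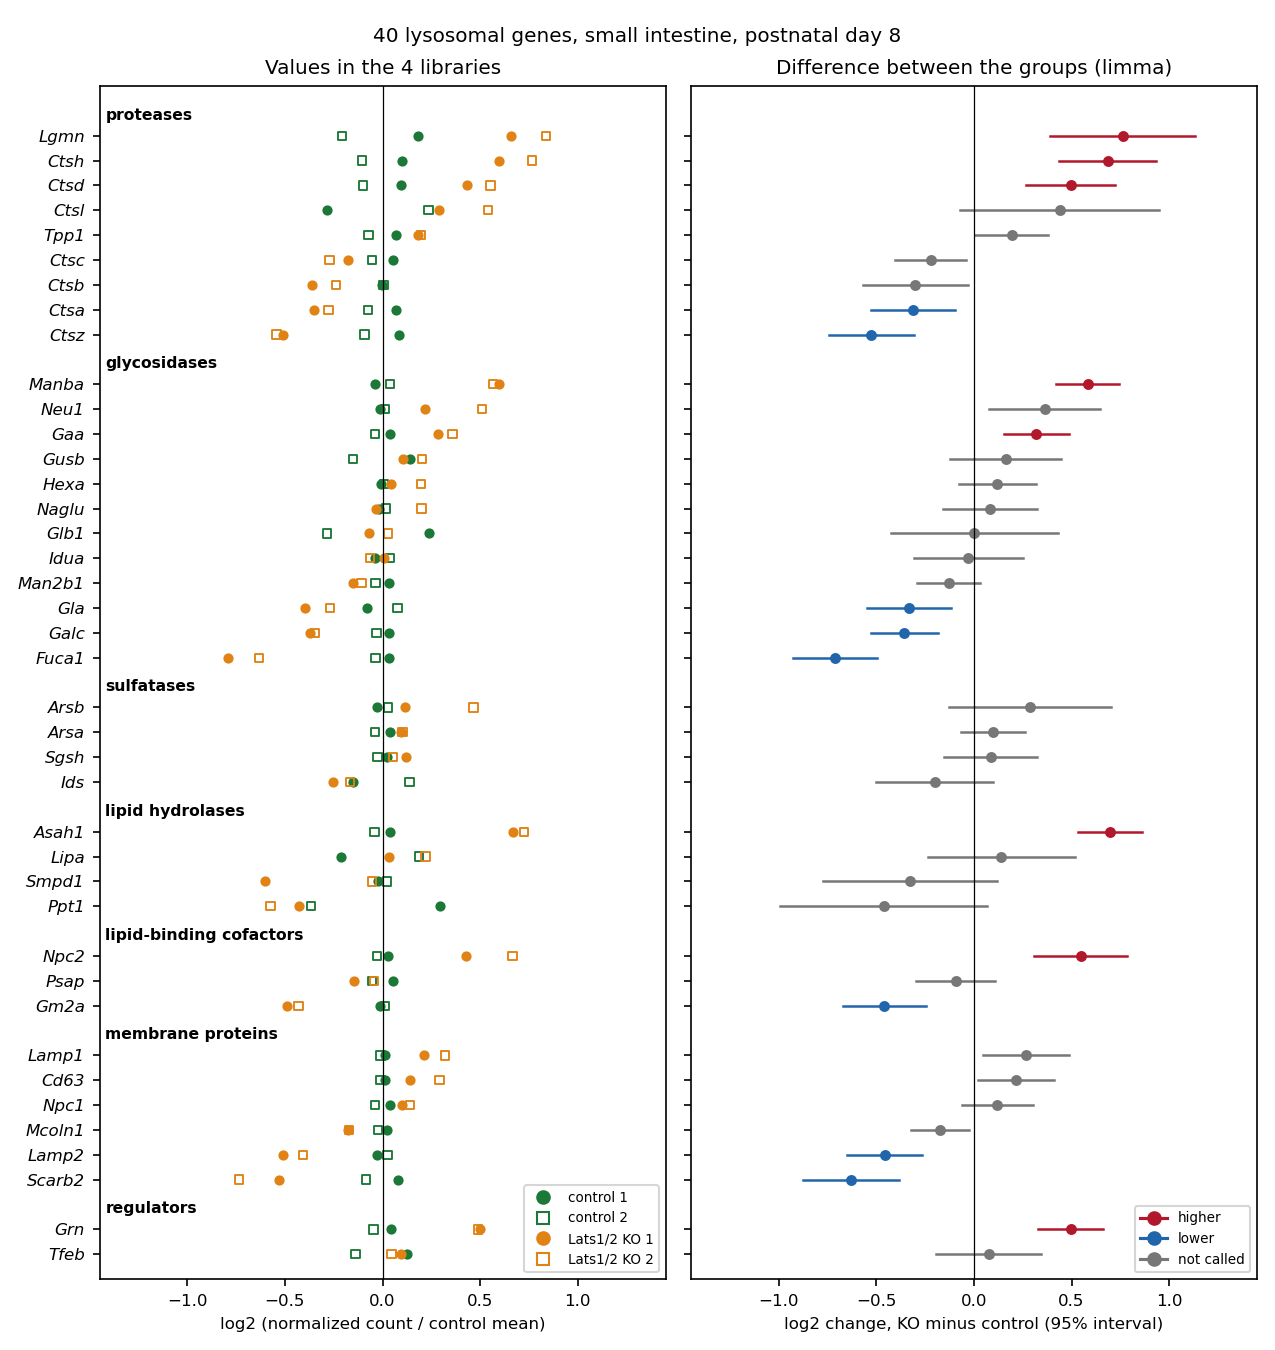
Each row is 1 of the 40 genes, grouped by role. The left panel plots each library's normalized count over the control mean on a log2 axis, and the right panel the log2 change with its 95% interval. Red and blue mark the 8 higher and 8 lower genes past the threshold, which occur in nearly every role, and no point estimate reaches 1 on the log2 scale.

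Summed over the list, the 40 genes took 1.84% and 1.88% of reads in the controls and 1.90% and 2.03% in the knockouts, 1.86% ± 0.0321 against 1.97% ± 0.0927 (SD, n = 2 each). With 2 libraries against 2, the smallest two-sided p of an exact permutation test is 0.333, which this difference had. Ctsb, Ctsl and Lamp1 together gave 39.1% to 44.3% of the members' reads in the 4 libraries.

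Most calls were lost when a knockout library was left out, 10 of 16 without Lats1/2 KO replicate 1 and 13 without replicate 2. The counts of higher and lower members were 4 and 2 without Lats1/2 KO replicate 1, where 11.5% of all genes were called, and 2 and 2 without replicate 2, where 11.4% were. They were 8 and 7 without control replicate 1 and 9 and 8 without control replicate 2, where 22.3% and 22.9% of all genes were called. Ctsa, Ctsd, Ctsz, Lgmn, Gla, Gaa, Galc, Gm2a, Lamp2 and Grn lost their calls without either knockout library, and Ctsh, Npc2 and Scarb2 without replicate 2. Manba, Fuca1 and Asah1 kept their calls in all 13 alternatives, and no called member turned its sign in any. Among members, 31 of 40 had a higher value in the second than in the first knockout library, with a median difference of 0.10 on the log2 scale regardless of sign, and 26 had a higher value in the first control library than in the second, with a median of 0.08.

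Of the 9 proteases, 3 rose, 2 fell and 4 did not pass. Lgmn encodes legumain, the asparaginyl endopeptidase that also processes cathepsins (ENSMUSG00000021190, chromosome 12, 102394084 to 102439813, GRCm38). Controls had 24669 and 18841 normalized counts and knockouts 34326 and 38911. Its 2 knockout values lay above both controls, which themselves differed, and it rose 1.70-fold (log2 change 0.76 ± 0.15 SE, adjusted p = 0.0179). Ctsh, an aminopeptidase of the cathepsin family (chromosome 9, 90054152 to 90076089), was 5757 and 5006 in the controls and 8140 and 9144 in the knockouts, a 1.61-fold rise (log2 change 0.68 ± 0.10 SE, adjusted p = 0.0072). Ctsd, the main aspartic protease of lysosomes (chromosome 7, 142375911 to 142388038), rose 1.41-fold, from 8280 and 7242 to 10465 and 11388 (adjusted p = 0.0152).

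Among proteases that fell, Ctsz is a carboxypeptidase with a high level in this tissue (chromosome 2, 174427493 to 174439039). Its values were 23649 and 20900 in the controls and 15620 and 15280 in the knockouts, without overlap, a 1.44-fold fall (log2 change -0.53 ± 0.09 SE, adjusted p = 0.0110). Ctsa, the serine carboxypeptidase that protects beta-galactosidase and neuraminidase in a complex, had 28806 and 26079 in the controls and 21501 and 22647 in the knockouts. It fell 1.24-fold with an adjusted p of 0.0483, just under the threshold, and the call was lost without control replicate 1, without either knockout library and with no filter. The other cathepsins did not pass. Ctsl, a cysteine endopeptidase, ranged from 75328 to 107896 between the controls and from 112103 to 133179 between the knockouts (log2 change 0.44, adjusted p = 0.166), and Ctsb, another, was 93704 and 94300 against 73091 and 79641 (log2 change -0.30, adjusted p = 0.0932). Ctsb was called lower by edgeR, DESeq2 and limma-voom, and Ctsl higher without control replicate 2. Ctsc and Tpp1, peptidases that release dipeptides and tripeptides, had log2 changes of -0.22 and 0.19 and did not pass.

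Because the expression of Ctsd and Ctsz moved apart, their ratio of normalized counts within a library, chosen after the values were seen, was 0.350 and 0.347 in the controls and 0.670 and 0.745 in the knockouts. Such a ratio does not depend on how libraries are scaled. Its exact permutation p was 0.333, the smallest this design can give.

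Of 12 enzymes that cut sugars, 2 rose, 3 fell and 7 did not pass. Fuca1, the alpha-fucosidase (chromosome 4, 135920735 to 135940311), had the largest fall of the whole list. It went from 27172 and 25873 normalized counts in the controls to 15339 and 17097 in the knockouts, 1.64-fold lower (log2 change -0.71 ± 0.09 SE, adjusted p = 0.0044). Manba, the beta-mannosidase that acts at the end of N-glycan breakdown (chromosome 3, 135485611 to 135571404), moved the other way. Its values of 1627 and 1714 in the controls and 2530 and 2474 in the knockouts showed a rise (log2 change 0.58 ± 0.06 SE, adjusted p = 0.0034), while its partner in the pathway Man2b1, the alpha-mannosidase, had a log2 change of -0.13 (adjusted p = 0.188).

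Gaa, which digests glycogen in lysosomes, was 3032 and 2871 in the controls and 3588 and 3782 in the knockouts and rose 1.25-fold (adjusted p = 0.0216). Galc, which removes galactose from the myelin lipid galactosylceramide, fell 1.28-fold from 1317 and 1261 to 997 and 1014 (adjusted p = 0.0171). Gla, the alpha-galactosidase, fell 1.26-fold from 2181 and 2430 to 1748 and 1914, with an adjusted p of 0.0398. The 2 groups were separate for each of these 3 genes, though the Gla call was lost without control replicate 2, without either knockout library and with no filter, and those of Gaa and Galc without either knockout library.

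Glb1, the beta-galactosidase, stayed nearest to no change of the abundant members, with 12694 and 8845 in the controls and 10263 and 10969 in the knockouts. The knockout values lay between those of the controls, and the log2 change was 0.00 with a 95% interval of -0.43 to 0.43. Neu1, the neuraminidase that forms a complex with Ctsa and Glb1, was 20544 and 20908 in the controls and 24058 and 29467 in the knockouts. Its log2 change of 0.36 did not pass by limma (adjusted p = 0.0674), and it was called higher by DESeq2 and with library size scaling. Hexa, a subunit of the enzymes that remove terminal hexosamines, was 12344 and 12475 in the controls and 12774 and 14229 in the knockouts and did not pass (log2 change 0.12, adjusted p = 0.310). Gusb, Naglu and Idua had log2 changes of 0.16, 0.08 and -0.03 and did not pass.

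None of the 4 sulfatases passed by limma, edgeR, DESeq2 or limma-voom, and 0 had an unadjusted p under 0.05 by limma, where 41.3% of all tested genes did. Arsa, which acts on sulfatide, Arsb, which acts on dermatan sulfate, and Sgsh, which acts on heparan sulfate, had log2 changes of 0.10, 0.29 and 0.09, and Ids, which removes sulfate from both of these glycosaminoglycans, had -0.20. Arsb was the least abundant member, at 148 ± 4.21 and 182 ± 31.2 normalized counts (SD, n = 2 each), with a 95% interval of the log2 change from -0.13 to 0.70. Hgsnat, the membrane-bound acetyltransferase of heparan sulfate breakdown, is not a member of the 40 and was named after its value was seen. Hgsnat rose, at 639 and 606 normalized counts in the controls and 1121 and 1155 in the knockouts (log2 change 0.87, adjusted p = 0.0017). Arsg, a sulfatase of heparan sulfate that is also outside the 40, went the other way and fell 4.39-fold (adjusted p = 0.00086 by limma).

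Of the 4 lipid hydrolases, 1 rose. Asah1, acid ceramidase (chromosome 8, 41340197 to 41374773), had the smallest adjusted p of the list, 0.0021. It went from 4406 and 4167 normalized counts in the controls to 6804 and 7084 in the knockouts, 1.62-fold higher (log2 change 0.70 ± 0.07 SE), a difference far wider than the spread within either group. Smpd1, acid sphingomyelinase, which makes the ceramide that Asah1 cleaves, was 912 and 940 in the controls and 611 and 891 in the knockouts, with a log2 change of -0.33 (adjusted p = 0.228). Ppt1, a thioesterase that removes palmitate from proteins, differed between the 2 controls themselves, 4690 against 2968, and did not pass (log2 change -0.46, adjusted p = 0.160). It was called lower without control replicate 2, and Smpd1 without Lats1/2 KO replicate 2. Lipa, the acid lipase for cholesterol esters and triglycerides, had a log2 change of 0.14.

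Lipid-binding cofactors went in different directions. Npc2, which hands cholesterol to the membrane protein Npc1, rose 1.46-fold, with controls at 6840 and 6571 normalized counts and knockouts at 9018 and 10643 (log2 change 0.55 ± 0.10 SE, adjusted p = 0.0127). Npc1 was 995 and 944 against 1037 and 1069 and did not pass (log2 change 0.12). Gm2a, the activator that presents GM2 ganglioside for breakdown, fell 1.38-fold from 580 and 590 to 416 and 434 (log2 change -0.46 ± 0.09 SE, adjusted p = 0.0152). Psap, the precursor of the saposins, was 18562 and 17227 against 16157 and 17363, overlapping groups with a log2 change of -0.09 and a 95% interval of -0.30 to 0.11.

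The Npc2 to Npc1 ratio of normalized counts, chosen after the values were seen, was 6.88 and 6.96 in the controls and 8.70 and 9.96 in the knockouts, with the exact permutation p at its floor of 0.333.

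**Figure D2:**
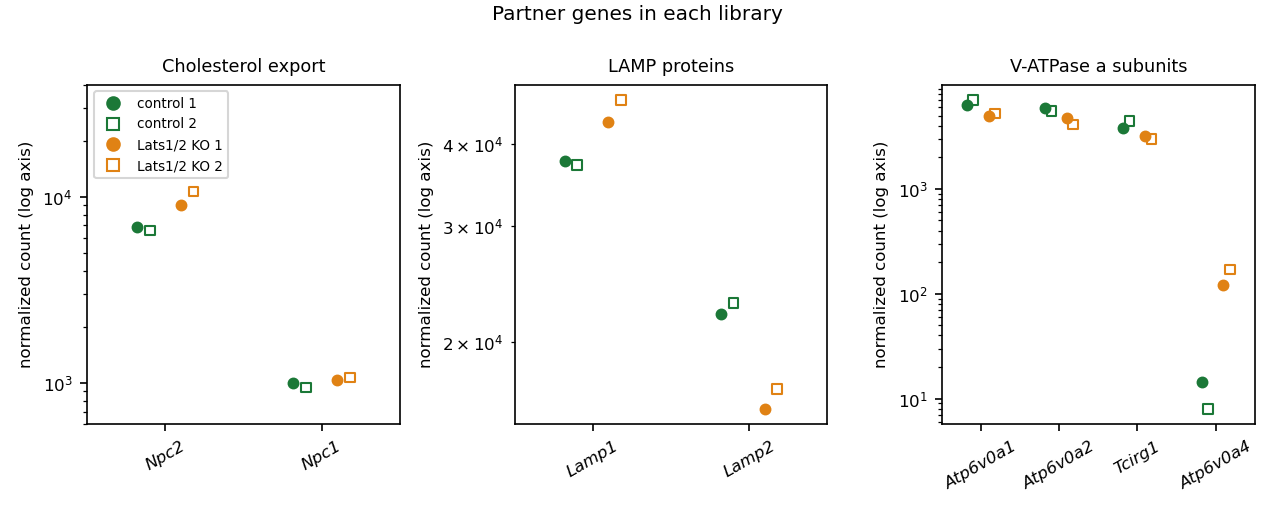
Points are normalized counts of single libraries on log axes whose ranges differ between panels, control in green and Lats1/2 KO in orange. Lamp2 and 3 of the 4 V-ATPase a subunits lie lower in both knockout libraries, Npc2, Npc1 and Lamp1 do not, and Atp6v0a4 goes from 14.5 and 8.00 to 122 and 170.

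Of 6 membrane proteins 2 fell, 0 rose and 4 did not pass. Scarb2, also known as LIMP-2, is a transport receptor that carries an enzyme to lysosomes (chromosome 5, 92441314 to 92506833). It had 6664 and 5937 normalized counts in the controls and 4366 and 3782 in the knockouts and fell 1.55-fold (log2 change -0.63 ± 0.10 SE, adjusted p = 0.0094). Lamp2, a coat glycoprotein needed for fusion with autophagosomes (chromosome X, 38401357 to 38456454), was 22059 and 22878 in the controls and 15804 and 16953 in the knockouts, a fall between groups that did not overlap (log2 change -0.46 ± 0.08 SE, adjusted p = 0.0113). Lamp1, the related coat glycoprotein, was higher in both knockout libraries, at 37682 and 37140 against 43268 and 46737, and did not pass by limma (log2 change 0.27, adjusted p = 0.0783), though DESeq2 and limma-voom called it. The Lamp1 to Lamp2 ratio of normalized counts, chosen after the values were seen, was 1.71 and 1.62 in the controls and 2.74 and 2.76 in the knockouts (exact permutation p = 0.333). Cd63, a tetraspanin of late endosomes, and Mcoln1, the calcium channel TRPML1, had log2 changes of 0.22 and -0.17 and did not pass.

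Grn, which encodes progranulin, the precursor of the granulins, was the regulator that rose. Its normalized counts were 8111 and 7614 in the controls and 11130 and 11040 in the knockouts, a 1.41-fold rise (log2 change 0.50 ± 0.07 SE, adjusted p = 0.0060). Tfeb itself was 911 and 758 in the controls and 891 and 861 in the knockouts, so the groups overlapped, with a log2 change of 0.08 and a 95% interval of -0.19 to 0.34. RNA level does not show how much TFEB protein was in the nucleus.

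In the authors' deposited table, 10 members were higher and 10 lower at an adjusted p under 0.05, where 12.8% and 10.2% of all genes with an adjusted p were, or 23.0% in either direction. All 16 members called by limma were called the same way there. The authors' deposited table additionally had Neu1 and Lamp1 as higher and Ctsb and Ppt1 as lower.

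**Figure D3:**
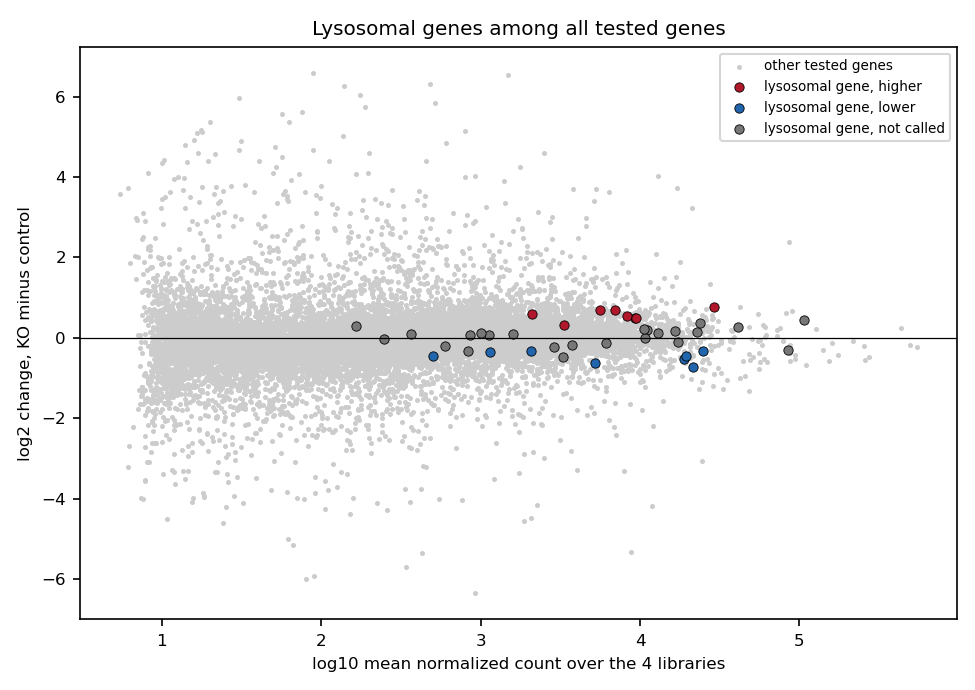
Each grey point is a tested gene, placed by its mean normalized count over the 4 libraries on a log10 axis and its log2 change. The 40 lysosomal genes in colour lie in the middle and right of the plot within a log2 change of -0.71 to 0.76, while other genes reach -6.34 and 6.59.

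Per length, the members covered a wide range of levels. Levels as RPKM (reads scaled by exon length and by library depth, computed here with GENCODE exon lengths) ran in the controls from 0.852 ± 0.0255 for Arsb to 540 ± 3.19 for Ctsb (SD, n = 2). The 5 highest RPKM in the controls were those of Ctsb, Ctsz at 537 ± 46.1, Ctsl at 491 ± 124, Lamp1 at 486 ± 4.28 and Lgmn at 326 ± 61.2, and the first 4 of these RPKM means lay within the spread of Ctsl. In the knockouts the order of these 5 was Ctsl at 657 ± 63.6 RPKM, Lamp1 at 585 ± 17.4, Lgmn at 523 and 573 in the 2 libraries, Ctsb at 439 ± 15.8 and Ctsz at 373 ± 15.1. The knockout RPKM means of Ctsl and Lamp1, 657 and 585, were apart by less than the difference between the 2 Ctsl values, 612 and 702. The 2 Lamp1 values were 573 and 597.

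Exons of some members share bases with other genes. Reads there cannot be told apart on the same strand, or on opposite strands where strand was not used in counting. That setting is not given in the sources used here. In GENCODE M21, 21.6% of Sgsh exon bases overlap Card14 on the opposite strand, whose mean of 858 normalized counts exceeds the 357 and 379 of Sgsh. Ctsa overlaps Pltp and Neurl2 over 10.5% and 6.87% of its exon bases, yet these had means of 95.2 and 17.8. The gene model Gm49369 covers 34.4% of Ctsd exon bases on the same strand, and Fdft1 covers 12.8% of Ctsb on the opposite strand. Ctsl overlaps an antisense gene over 26.8% and a processed pseudogene on its own strand over 6.09%. Gm49369 and both neighbours of Ctsl had no values in the deposited data, nor did Gm26527, which covers 32.3% of Arsb. Arsb had the largest overlap, 39.9% of its exon bases, and Arsa had 18.8%. Smaller overlaps joined Ppt1 to Cap1 (3.51% of exon bases) and Idua to Dgkq (2.95%), whose means of 9521 and 1429 normalized counts exceed those of Ppt1 and Idua. Hexa shared 12.8% of its exon bases with Tmem202, Lamp1 9.31% with Grtp1, Glb1 5.49% with Tmppe and Npc1 4.52% with Rmc1. Rmc1 had a mean of 987 normalized counts, beside 969 and 1053 for Npc1. The antisense neighbour of Arsa had a mean of only 11.2, and Fdft1 had 2735, far below Ctsb. The values of all these members carry that uncertainty, to a degree that was not measured.

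The rest of the lysosome showed larger changes than the 40 genes at its extremes. Of 28 other lysosomal enzymes, 5 rose, 9 fell and 14 were not called, and the median log2 change was -0.10. Arsg, a sulfatase of heparan sulfate, fell 4.39-fold from 3947 and 3809 normalized counts to 765 and 1018 (adjusted p = 0.00086). Ggh, which trims folate polyglutamates, fell 3.94-fold from 5164 and 5069 to 1366 and 1236 (adjusted p = 0.00021). Arsg and Ggh are thus well past the range of the 40 members, and without Lats1/2 KO replicate 1 the list had 2 higher and 5 lower, without replicate 2 it had 2 and 4. Of 24 other lysosomal membrane proteins, 2 rose, 8 fell and 14 were not called (41.7% called), and the median log2 change was -0.25. Slc17a5, the sialic acid exporter, fell 1.78-fold (log2 change -0.83, adjusted p = 0.0030), Ctns, the cystine exporter, had a log2 change of -0.44 and Ostm1, the partner of the chloride exchanger Clcn7, of -0.51. Without the first or second Lats1/2 KO library, 3 and 4 of this list were lower and 1 and 0 higher. These falls stand beside the lower macrophage markers given above, and the part of the latter was not tested.

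The V-ATPase acidifies lysosomes, and its membrane-bound a subunit exists in 4 forms. Of 20 tested V-ATPase genes 1 rose and 3 fell, and the median log2 change was 0.01. The gene that rose was Atp6v0a4, the form best known from kidney and inner ear, with 14.5 and 8.00 normalized counts in the controls and 122 and 170 in the knockouts (12.3-fold, log2 change 3.62 ± 0.35 SE, adjusted p = 0.0022). The 3 that fell were the other forms, Atp6v0a1 (log2 change -0.38), Atp6v0a2 (-0.37, named after its value was seen) and Tcirg1 (-0.42), which ranged from 2980 to 7063 normalized counts over the libraries. Their calls were lost without either knockout library, where 0 V-ATPase genes were lower and 2 and 1 were higher.

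Of 28 genes that sort enzymes to the lysosome, 6 rose and 0 fell (21.4%, against 27.5% of all tested genes). The median log2 change was 0.11 and the largest rise was 0.41. The smallest adjusted p were those of Ap1m1 and Ap3m1, adaptor subunits, and Gga2, a carrier of mannose 6-phosphate receptors, with log2 changes of 0.31, 0.28 and 0.31. Gnptab, which starts the mannose 6-phosphate tag, and Nagpa, which uncovers it, were also among the 6, named after their values were seen (0.40 and 0.41). No member of this list rose without either knockout library, and 3 rose without control replicate 2. At an unadjusted p under 0.05 by limma, 12 of the 28 were higher and 0 lower, where 21.7% and 19.5% of all tested genes were. In either direction the list's count is near the 41.3% of all tested genes.

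Among 20 genes of the other MiT/TFE factors and of mTORC1 at the lysosome, 2 rose, 3 fell and 15 did not pass. Rraga, a Rag GTPase, and Rheb, the GTPase that activates mTORC1, rose by 0.43 and 0.35 on the log2 scale, and Lamtor5, a Ragulator subunit, fell by 0.38. Mitf and Flcn, named after their values were seen, also fell, Mitf from 53.8 and 54.9 normalized counts to 17.6 and 25.3 (log2 change -1.32, adjusted p = 0.0207). Without either knockout library 0 of these rose, and 0 and 1 fell. Of 24 autophagy genes 3 rose and 2 fell, or 20.8%, below the share over all tested genes. Wipi2 and Rubcn rose by 0.60 and 0.50 and Wipi1 fell by 0.48 on the log2 scale. Without Lats1/2 KO replicate 2 only 1 autophagy gene was higher, and the 2 lower genes became 0 or 1 without any single library.

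Some endocytic receptors of suckling enterocytes, such as megalin and cubilin, deliver cargo to these lysosomes. In the list of 7 endocytic genes, not all of which encode such receptors, 4 rose, 1 fell and 2 did not pass. The share called was 71.4%, against 27.5% of all tested genes. Lrp2, megalin, rose from 190 and 206 normalized counts to 4675 and 4927 (log2 change 4.59), Cubn, cubilin, had a log2 change of 1.28, and Clcn5, an endosomal chloride exchanger, rose 1.74-fold from 8917 and 9239 to 15857 and 15749 (log2 change 0.80, adjusted p = 0.0014). Fcgrt, the neonatal Fc receptor chain named after its value was seen, fell from 183157 and 183383 to 109873 and 138992 with an adjusted p of 0.0491, a call that was lost without any single library, with a pseudocount of 5 and with no filter.

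**Figure D4:**
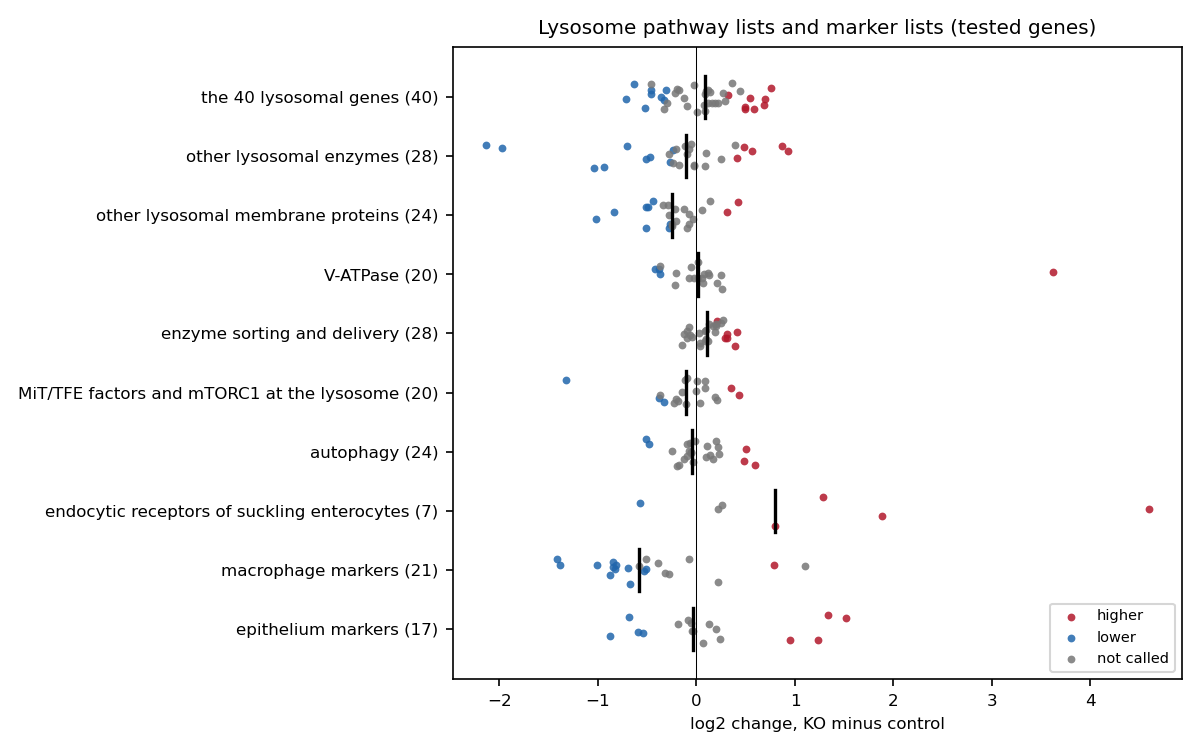
Each point is a tested gene of a list, placed by its log2 change, with the number of genes in brackets, the list median as a black bar and colours for genes past the threshold. The 40 lysosomal genes lie around 0.08 with 8 past the threshold on each side, while the macrophage markers have a median of -0.58. The list of endocytic genes has a median of 0.80.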

How the data were processed

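RNA was measured in 4 libraries, 2 per group. Per the submitters' processing notes, STAR, featureCounts, DESeq2 and the build GRCm38 were used. The sources used here name no tool version, strand setting or annotation release. Library columns hold a signal deposited by the authors, namely normalized counts in which each library has its own scale factor, as the values show. Dividing by each column's smallest value above 0 gave whole reads for 100% of values (tolerance 0.001 reads). The authors' deposited table adds, for each gene, an adjusted p-value, their log2 change and its linear fold (ratio). Columns name the group but no sample, so libraries were numbered in column order, as names only.

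Under R 4.3.3, limma 3.58.1 with its trend option was fitted to log2(normalized count + 1) of 16415 genes with at least 10 in at least 2 libraries, with Benjamini-Hochberg adjustment over all of them and a threshold of 0.05. Fold changes are on that scale. The fit was tested on simulated data. Spread had 2 residual and 3.53 prior degrees of freedom. The labels do not say that samples came from separate animals, so p-values measure the spread between samples, which may be technical. Alternatives were edgeR 4.0.16, DESeq2 1.42.0 and limma-voom on recovered reads, 2 scalings, 2 pseudocounts, 2 filters and leaving out each library. Members and lists were chosen with earlier results of these data known. All 40 members could be named, with up to 3 genes of smallest adjusted p per pathway list and the 3 most abundant per marker list. Gene coordinates and exon lengths came from GENCODE M21 (GRCm38), promoters from RefSeq. Results for some genes of the pathway lists are not reported here.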

Additional observations from a re-analysis of the deposited data

How the results depend on the processing

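The 9 alternatives that kept all 4 libraries changed few calls. Of the 16 called members 14 stayed called in every one of them, and Ctsa and Gla were lost with no filter. Ctsb, Neu1 and Lamp1 were gained in at least 1 of edgeR, DESeq2, limma-voom and library size scaling. On the recovered reads edgeR called 4568 of all genes (27.8%). Leaving out a library had more effect. Higher members then numbered 2 to 9 and lower members 2 to 8, with the lowest counts without a Lats1/2 KO library, the number of all genes higher was 908 to 2171 and of all genes lower 864 to 1612. With no filter, all genes lower were 1318, with 29011 genes tested. The cause was not tested, other than that these fits have fewer samples or more genes. The median log2 change of the members stayed within 0.038 and 0.11 in all alternatives. In the fits without a library the lone sample of a group is assumed to vary like the others. No paired analysis was possible because the numbers in the column names are in no label. With 2 libraries per group the SE of members ranged from 0.06 to 0.21 on the log2 scale, and no member with a log2 change smaller in size than 0.31 was called.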
